A study of Homo sapiens with 12 samples.

Results

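The genes described here are 37 genes of cell-cell junctions, read in all 12 libraries of an RNA-seq experiment on HK2 cells, an immortalised human cell line derived from the proximal tubule of the kidney. They were taken as a named list, matched by symbol to Ensembl identifiers, and all 37 were found among the 62703 genes of the deposited table. By role they are 5 cadherins, 4 catenins, 3 genes of the nectin and afadin system, 10 membrane proteins of the tight junction, 7 scaffold and polarity proteins of the tight junction, 7 desmosome proteins and the gap junction gene GJA1. There were 4 groups of 3 libraries. NG cells were kept in 5.5 mM glucose and received a control vector, and HG cells were kept in 50 mM glucose. The si-FGF9 cells received an siRNA against fibroblast growth factor 9 (FGF9), by the labels without the high glucose treatment. The HG+OE-FGF9 cells were kept in 50 mM glucose and received a vector that overexpresses FGF9. All groups come from 1 cell line. The labels and methods describe a control vector but no non-targeting siRNA, they do not say whether HG cells received a vector, and they do not give the length of the glucose treatment before sequencing. The labels do not say whether the 3 libraries of a group are separate cultures, so that p-values measure the spread between libraries, which may be technical. The comparisons were those of the study. HG was set against NG, then si-FGF9 against NG, and HG+OE-FGF9 against HG.

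Epithelial cells are held together by several kinds of junction. In adherens junctions, cadherins and nectins span the gap between cells, and catenins and afadin link them to actin. In tight junctions, claudins and occludin seal the space between cells and set which ions pass, held by scaffolds such as ZO-1, while the Crumbs and Par complexes set the apical border. Desmosomes tie the keratin filaments of neighbouring cells together through desmogleins, desmocollins, plakophilins and desmoplakin, and connexins form the channels of gap junctions. Loss of E-cadherin with gain of N-cadherin is the textbook sign of epithelial-mesenchymal transition (EMT), although the proximal tubule itself normally carries N-cadherin.

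Levels are given as TPM, a unit of transcript number that is scaled for gene length and library and can be compared between genes. TPM keep no record of sequencing depth, so the counting error of low values is unknown. The test was limma on log2(TPM + 1) across the 14639 genes with at least 1 TPM in 3 or more libraries. Fold changes are on that scale, which understates the change of low genes. A gene was called when its log2 fold change was at least 1 in either direction with an unadjusted p below 0.01, the rule of the study, and p-values adjusted by Benjamini-Hochberg over all genes tested are given beside the calls. An exact permutation test of 3 libraries against 3 cannot give a p below 0.1, so single genes rest on the fit across all genes.

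FGF9 was listed at 0 TPM in all 9 libraries of NG, HG and si-FGF9 and at 3.34, 4.03 and 3.82 TPM in HG+OE-FGF9, so that the overexpression was seen and the knockdown could not be checked in these files. The proximal tubule label could be checked only in part. Of 14 proximal tubule markers, 5 reached 1 TPM in at least 3 libraries and 9 stayed under 1 TPM in all 12, among them LRP2 and CUBN, the endocytic receptors of the brush border, with highest values of 0.02 TPM each. All 5 epithelial markers reached 1 TPM. None of 7 distal nephron, 0 of 4 endothelial and 1 of 4 leukocyte markers did, the last being CD68, while PTPRC, which marks all leukocytes, had a highest value of 0.07 TPM. Of 9 mesenchymal markers, 6 reached 1 TPM. Replicates 1 and 2 of HG+OE-FGF9 and replicates 2 and 3 of NG were closer to each other than any other replicates of 1 group. Their median absolute log2 differences over 6217 genes were 0.0598 and 0.0754, against 0.121 to 0.569 for the other pairs, and whether they differ by more than sampling noise cannot be tested without counts. Averaging each of these pairs into 1 sample changed the counts of called junction genes only for HG+OE-FGF9 versus HG, as given there.

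Among the junction genes, 7 of the 37 stayed under 1 TPM in all 12 libraries and were not tested. They were the cadherins CDH1, CDH4 and CDH13, the claudins CLDN7 and CLDN10, the tight junction scaffold cingulin (CGN) and the desmosomal periplakin (PPL). The other 30 were tested, 23 of them with at least 1 TPM in every library, and 0 of the 30 reached 1 TPM in a single group only. However, DSC2 and PKP2 passed the filter through NG. They reached 1 TPM in every NG library and elsewhere only in HG replicate 1 (DSC2, 1.05 TPM) or HG replicate 3 (PKP2, 1.10 TPM). MARVELD2 and CDH3 reached 1 TPM only in libraries of NG and HG+OE-FGF9, and CLDN2 only in libraries of NG and HG. The strongest was CLDN11, which ranked first among the 37 genes in each group. NECTIN2 and CTNNA1 were the other 2 genes among the first 4 in every group. The number of junction genes with a mean of at least 10 TPM was 21 in NG, 14 in HG, 13 in HG+OE-FGF9 and 12 in si-FGF9. The summed TPM of the 37 genes was 1857 to 1953 in NG, 810 to 1361 in HG, 652 to 983 in HG+OE-FGF9 and 755 to 860.1 in si-FGF9, so that every NG library lay above every other library. The range of the HG libraries was wide. HG replicate 2 had the lowest HG value in 13 of the 13 genes later called lower in HG, and HG replicate 3 had the highest in 10 of them. In GENCODE release 29, 12 of the 37 genes overlap another protein-coding gene, among them CTNNB1, CTNND1, F11R, CLDN11, CLDN12, PALS1 and CRB3, and how the authors assigned shared reads, or whether they used strand, is not given in the sources used here.

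**Figure D1:**
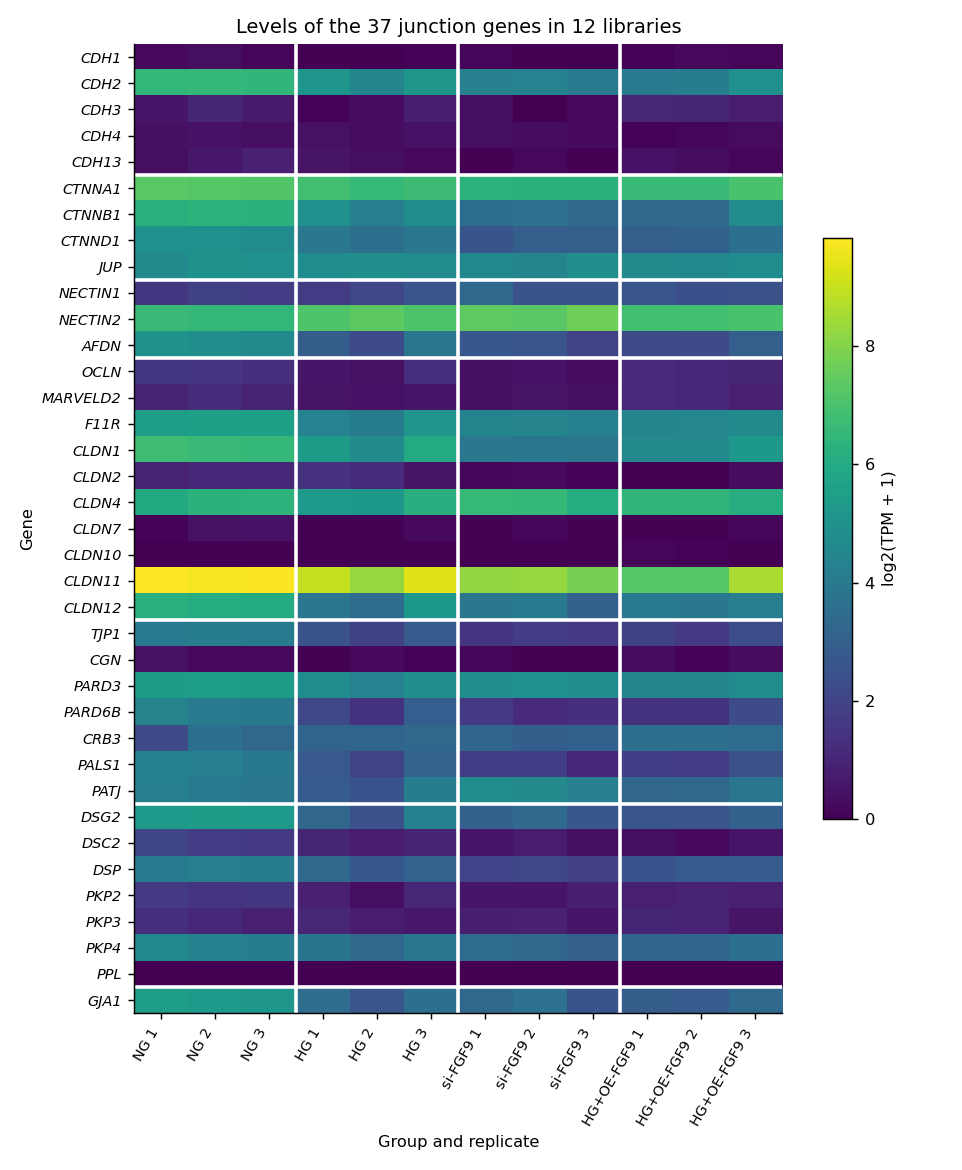
Levels of the 37 junction genes, as log2(TPM + 1) in colour, with 1 row per gene grouped by role and 1 column per library grouped by condition. CLDN11 is the brightest row in every group, the rows of CDH1, CGN, PPL, CLDN7 and CLDN10 are dark in all 12 libraries, and CTNNB1, CLDN1, DSG2 and GJA1 are brighter in the 3 NG libraries than in the rest.

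HG versus NG asks what high glucose does to these cells. In HG, 13 of the 30 genes tested were called lower and 0 higher, where 22.7% of all genes tested were called lower, 1.65% higher and 24.4% either way. The surplus of lower calls over all genes depended on the scaling, with 8.27% lower and 7.43% higher after scaling by the median of ratios and 3.06% lower and 3.78% higher after correction for GC content, and the junction genes are given under both below. The 13 genes were the N-cadherin gene CDH2, beta-catenin (CTNNB1), p120-catenin (CTNND1), afadin (AFDN), the adhesion molecule JAM-A (F11R), CLDN1, CLDN12, ZO-1 (TJP1), the polarity genes PARD6B and PALS1, the desmosomal genes DSG2 and DSP, and connexin 43 (GJA1). The HG libraries lay entirely below the NG libraries in 20 of the 30 genes and entirely above them in 1, NECTIN2. At an unadjusted p under 0.05 without the fold change limit, limma placed 23 genes lower and 1, again NECTIN2, higher. Neither of these counts was made over all genes tested, so they describe these genes and are not read as particular to them. The median log2 fold change of the 30 genes was -0.90, against -0.39 over all genes tested, and 23 of the 30 lay below the latter. In a bulk library fewer cells of a type and less RNA per cell cannot be told apart, here and in the values that follow.

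In si-FGF9 versus NG, which asks what the siRNA against FGF9 does in normal glucose, 17 of the 30 genes were called lower and 1, NECTIN1, was called higher, where 42.2% of all genes tested were called lower, 5.36% higher and 47.6% either way. After scaling by the median of ratios 17.5% were lower and 19.2% higher, and after GC correction 12% and 12.3%. The 17 genes were CDH2, CTNNB1, CTNND1, AFDN, F11R, CLDN1, CLDN11, CLDN12, occludin (OCLN), TJP1, PARD6B, PALS1, DSG2, DSP, desmocollin 2 (DSC2), plakophilin 4 (PKP4) and GJA1. Both comparisons use the same 3 NG libraries, so their values are given side by side and the overlap of their calls was not read as a result. The median log2 fold change of the 30 genes was -1.16, against -0.79 over all genes tested, and 20 of the 30 lay below the latter. The si-FGF9 libraries lay entirely below NG in 23 genes and entirely above in 3, NECTIN1, NECTIN2 and PATJ. Here too the share over all genes was not counted, so this is given as a description.

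HG+OE-FGF9 versus HG asks what FGF9 does on top of high glucose. Here 1 of the 30 genes, CLDN11, was called lower and 0 were called higher, where 2.67% of all genes tested were called lower, 2.94% higher and 5.61% either way. CLDN11 was the 1 gene called, again lower, after scaling by the median of ratios, where 1.78% of all genes were lower and 3.64% higher, and after GC correction, where 2.18% were lower and 3.03% higher. With the limit on fold change dropped and an unadjusted p under 0.05, limma placed CDH2, CTNNB1, CTNND1, NECTIN2, CLDN2, CLDN11 and DSC2 lower and CDH3, CLDN4 and MARVELD2 higher. The share of all genes at that limit was not counted. The median log2 fold change of the 30 genes was -0.25, against -0.13 over all genes tested. The HG libraries entered this comparison and the first one.

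**Figure D2:**
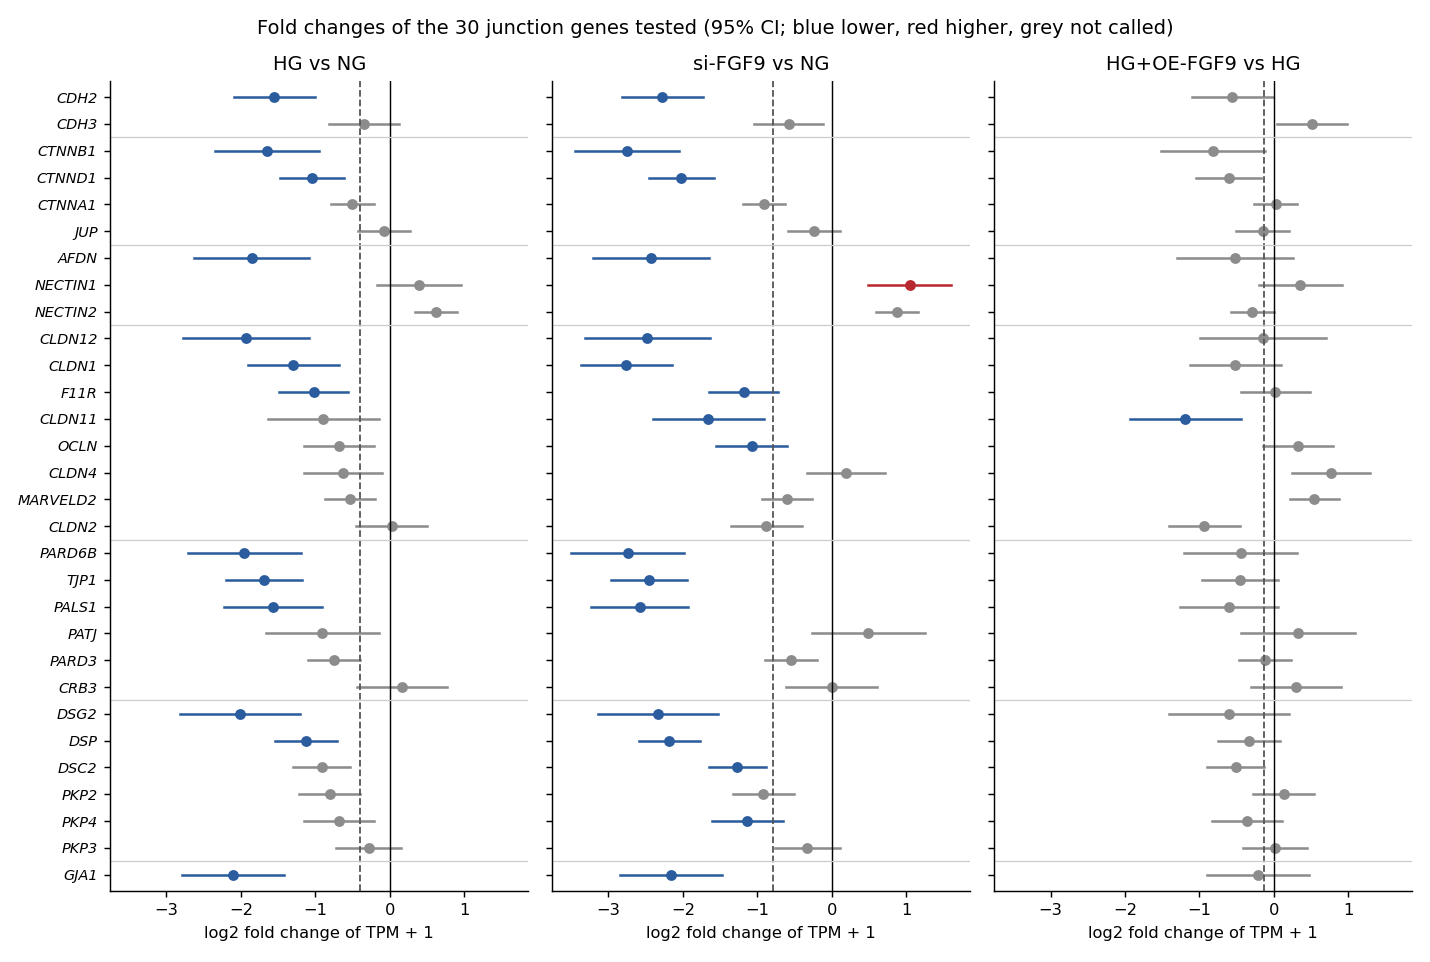
Log2 fold change of TPM + 1 with its 95% confidence interval from limma for the 30 junction genes tested, ordered by role, in the 3 comparisons. Blue marks genes called lower, red genes called higher and grey genes not called, and the dashed line is the median of all genes tested, at -0.39, -0.79 and -0.13. The left panel has 13 blue genes, the middle panel 17 blue genes and 1 red gene, NECTIN1, and CLDN11 is the 1 coloured gene of the right panel.

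Among the cadherins, which form the adhesive core of adherens junctions, CDH1, the gene of E-cadherin, was listed at 0.18, 0.28 and 0.10 TPM in NG, 0.01, 0 and 0.06 in HG, 0.06, 0.20 and 0.11 in HG+OE-FGF9 and 0.10, 0 and 0 in si-FGF9. These values are too low for a test, and no direction was read from them. N-cadherin had the highest level of the 5 cadherins of the list. CDH2 stood at 88.6, 91.6 and 87.2 TPM in NG, 34.4, 21.7 and 35.4 in HG, 15.1, 17.1 and 30.5 in HG+OE-FGF9 and 18.6, 19.5 and 15.1 in si-FGF9. All NG libraries were more than 2 times as high as any other library. CDH2 fell in HG by 1.55 on the log2 scale (SE 0.251, limma adjusted p = 0.0011) and in si-FGF9 by 2.28 (SE 0.251, limma adjusted p = 1.54e-05). HG+OE-FGF9 overlapped HG, with a log2 fold change of -0.56 (SE 0.251, limma adjusted p = 0.171). P-cadherin (CDH3) was near the limit of the test, at 0 to 1.07 TPM over the 12 libraries, and was not called in any comparison. CDH4 and CDH13, the latter a cadherin without a cytoplasmic tail, had highest values of 0.41 and 0.89 TPM.

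The catenins link cadherins to the cytoskeleton, and beta-catenin is also the transducer of WNT signals. CTNNB1 stood at 73.5, 80.4 and 78.9 TPM in NG, 29.7, 17.7 and 26.3 in HG, 9.23, 9.54 and 25.6 in HG+OE-FGF9 and 10.8, 12.01 and 9.24 in si-FGF9. NG lay above all other libraries, and replicate 3 of HG+OE-FGF9 lay with the HG libraries. CTNNB1 fell by 1.65 on the log2 scale in HG (SE 0.320, limma adjusted p = 0.00207) and by 2.76 in si-FGF9 (SE 0.320, limma adjusted p = 1.98e-05). Its log2 fold change in HG+OE-FGF9 versus HG was -0.82 (SE 0.320, limma adjusted p = 0.124), and without HG+OE-FGF9 replicate 3 it was -1.27 and was called. CTNND1, which keeps cadherins at the membrane, fell from 28.2 ± 2.18 TPM (SD, n = 3) in NG to 13.2 ± 1.65 with HG and 6.25 ± 1.14 with si-FGF9, and its HG call was lost without HG replicate 2. Alpha-catenin (CTNNA1), the link to actin, kept more of its level, with 150.1 ± 8.79 TPM in NG, 105.9 ± 10.0 with HG and 79.3 ± 0.789 with si-FGF9. These are log2 fold changes of -0.50 and -0.91, with limma adjusted p of 0.00839 and 7.22e-05, both under the fold change limit although no library overlapped. Plakoglobin (JUP), shared by adherens junctions and desmosomes, stood at 28.6 ± 4.13, 26.9 ± 1.42, 24.1 ± 1.70 and 24.2 ± 4.24 TPM in NG, HG, HG+OE-FGF9 and si-FGF9, and its groups overlapped in every comparison. Scaled by the median of ratios, which shifts all genes of a library together, CTNNA1 and JUP changed sign in both comparisons with NG.

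The nectins, immunoglobulin-like adhesion proteins that start new adherens junctions, had their highest values outside NG. NECTIN1 stood at 1.96, 2.69 and 2.43 TPM in NG, 2.32, 3.28 and 5.01 in HG, 5.21, 4.34 and 4.39 in HG+OE-FGF9 and 8.75, 4.73 and 4.90 in si-FGF9. Every si-FGF9 library lay above every NG library, with replicate 1 well above the other two. NECTIN1 rose in si-FGF9 by 1.05 on the log2 scale (SE 0.257, limma adjusted p = 0.00307), and HG overlapped NG, with a log2 fold change of 0.40 (SE 0.257, limma adjusted p = 0.224). The call was lost without si-FGF9 replicate 1 (0.80) or NG replicate 1 (0.96). NECTIN2 had 90.3 to 100.2 TPM in NG, 134 to 163 in HG, 114 to 127 in HG+OE-FGF9 and 156 to 199.5 in si-FGF9. HG and si-FGF9 lay above NG without overlap, with log2 fold changes of 0.62 and 0.88 (limma adjusted p = 0.003 and 9.62e-05), which did not reach the fold change limit. Every HG+OE-FGF9 library was below every HG library, with a log2 fold change of -0.29 (limma adjusted p = 0.174). Afadin, the partner that anchors nectins to actin, moved the other way. AFDN fell from 28.5 ± 3.51 TPM in NG to 8.01 ± 5.04 with HG and 4.58 ± 1.33 with si-FGF9, by 1.85 and 2.43 on the log2 scale (SE 0.356, limma adjusted p = 0.00202 and 8.07e-05).

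**Figure D3:**
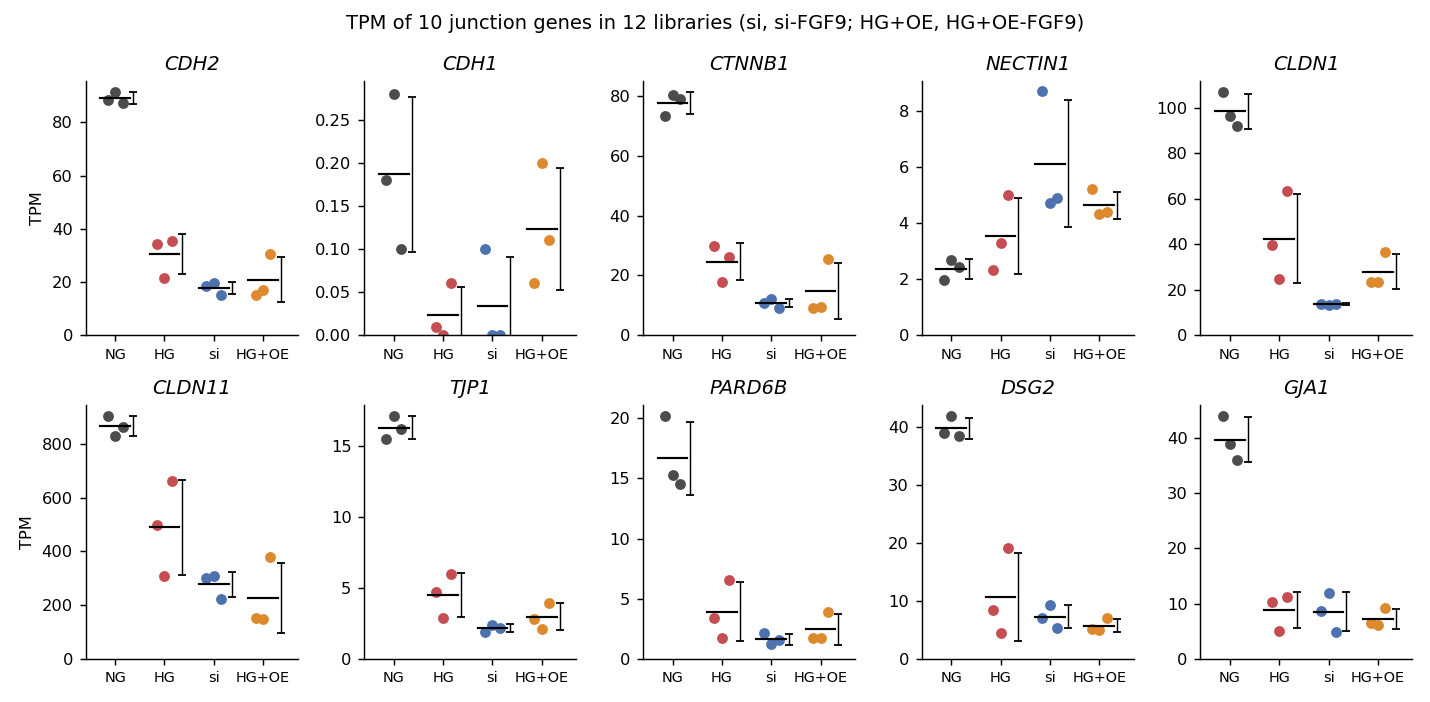
TPM of 10 junction genes in the 12 libraries, as 1 point per library, with the group mean as a line and the SD as a bar, cut at 0, on a linear axis from 0 in each panel. CDH2, CTNNB1, CLDN1, TJP1, PARD6B, DSG2 and GJA1 have their 3 NG points above all others, CDH1 is below 0.3 TPM throughout, and NECTIN1 has its highest point in si-FGF9.

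Claudins are the strand proteins of the tight junction, and their mixture sets its tightness. CLDN11 made up most of the claudin TPM, between 54.3% and 84.3% of the sum of the 7 claudins in each library. It stood at 905, 831 and 864 TPM in NG, 498, 308 and 663 in HG, 151, 149.6 and 378 in HG+OE-FGF9 and 299.6, 307 and 223 in si-FGF9. The HG and si-FGF9 libraries were below all NG libraries, while HG+OE-FGF9 replicate 3 lay above HG replicate 2. CLDN11 fell in si-FGF9 by 1.66 on the log2 scale (SE 0.340, limma adjusted p = 0.000894), a call lost after scaling by the median of ratios (-0.61), and in HG versus NG its log2 fold change was -0.89 (SE 0.340, limma adjusted p = 0.0468), under the limit. In HG+OE-FGF9 versus HG it fell by 1.19 (SE 0.340, limma adjusted p = 0.048). That call was lost in the fit of the 6 libraries alone, when the close replicate pairs were averaged (-0.97), and without HG replicate 1 or 3 or HG+OE-FGF9 replicate 1 or 2, and without HG+OE-FGF9 replicate 3 the value was -1.63.

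CLDN1, a sealing claudin, stood at 107, 96.3 and 92.2 TPM in NG, 39.5, 24.5 and 63.3 in HG, 23.4, 23.5 and 36.7 in HG+OE-FGF9 and 13.9, 13.4 and 13.8 in si-FGF9. The 3 si-FGF9 values were close together and below all 9 other libraries. CLDN1 fell in si-FGF9 by 2.76 on the log2 scale (SE 0.279, limma adjusted p = 1.06e-05) and in HG by 1.30 (SE 0.279, limma adjusted p = 0.00331). The HG call was lost without HG replicate 2 (-0.96), under GC correction (-0.36) and after scaling by the median of ratios (-0.78). CLDN12, which has been tied to calcium transport, fell from 68.5 ± 4.76 TPM in NG to 20.2 ± 14.8 with HG and 12.02 ± 4.29 with si-FGF9. CLDN4 did not follow these claudins. It had 61.5 to 80.0 TPM in NG, 37.2 to 71.1 in HG, 68.6 to 88.0 in HG+OE-FGF9 and 66.3 to 93.6 in si-FGF9, with overlap in all 3 comparisons. Its log2 fold changes were -0.63, 0.19 and 0.77 (limma adjusted p = 0.048, 0.496 and 0.0656). CLDN4 made up 5.4% to 7.3% of the claudin sum in NG, 6.5% to 9.8% in HG, 13.7% to 31.9% in HG+OE-FGF9 and 21.4% to 22.2% in si-FGF9, as the plot of claudin TPM shows, with no overlap between NG and si-FGF9. CLDN2, the cation-pore claudin of the proximal tubule, was low throughout, with 0.93 to 1.18 TPM in NG, 0.43 to 1.67 in HG, 0.02 to 0.27 in HG+OE-FGF9 and 0.08 to 0.19 in si-FGF9. Its 3 HG+OE-FGF9 libraries lay below all HG libraries, with a log2 fold change of -0.93 (SE 0.218, limma adjusted p = 0.0212), and its si-FGF9 libraries lay below all NG libraries, with -0.88 (limma adjusted p = 0.0032). CLDN2 passed the filter through libraries of NG and HG, where it was higher, so both differences are given as a description. CLDN10, another pore claudin of the nephron, and CLDN7 had highest values of 0.14 and 0.38 TPM.

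**Figure D4:**
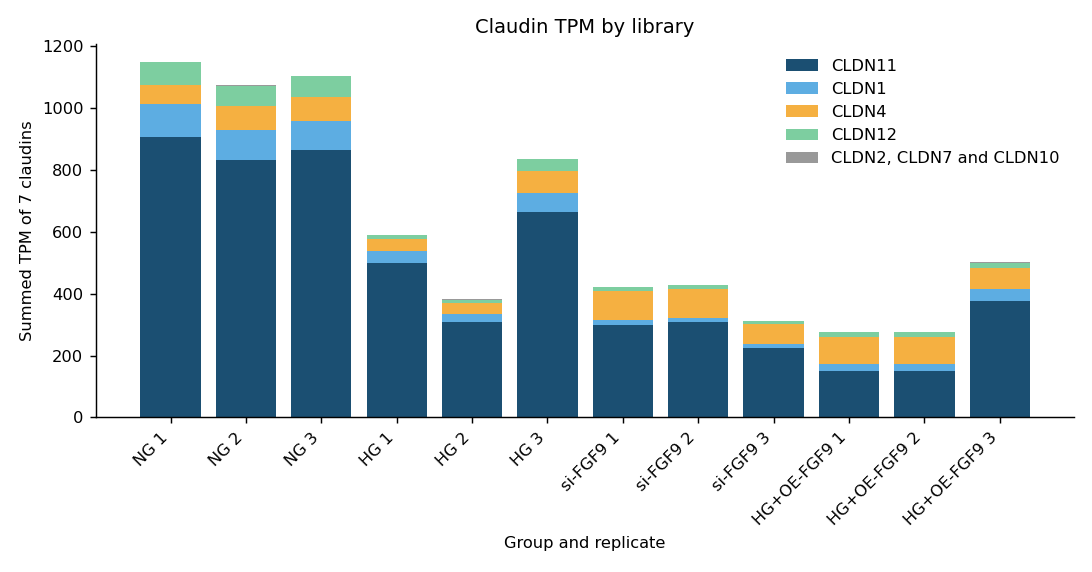
Summed TPM of the 7 claudins in each library as stacked bars from 0, with CLDN11, CLDN1, CLDN4 and CLDN12 in separate colours and the other 3 together. CLDN11 is the largest part of every bar, the sum is 1073 to 1149 TPM in NG and at most 835 elsewhere, and CLDN4 is visibly a larger part of the bars of si-FGF9 and HG+OE-FGF9.

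The other membrane proteins of the tight junction were less abundant. JAM-A (F11R), which recruits polarity proteins, fell from 45.9 ± 0.960 TPM in NG to 23.2 ± 9.24 with HG and 19.7 ± 0.813 with si-FGF9, by 1.02 and 1.18 on the log2 scale (SE 0.213, limma adjusted p = 0.00287 and 0.000354). The HG call was lost without HG replicate 1 or 2. Both calls were lost after scaling by the median of ratios (-0.51 in HG and -0.17 in si-FGF9) and after GC correction (-0.58 and -0.39). OCLN stood at 1.77 ± 0.280 TPM in NG, 0.783 ± 0.619 in HG, 1.16 ± 0.140 in HG+OE-FGF9 and 0.310 ± 0.10 in si-FGF9, and it fell in si-FGF9 by 1.08 on the log2 scale (SE 0.217, limma adjusted p = 0.000782). HG overlapped NG for OCLN, since HG replicate 3 was at 1.49 TPM, the value of NG replicate 3. Tricellulin (MARVELD2), which seals the points where 3 cells meet, stood at 1.08 ± 0.238, 0.430 ± 0.0361, 1.10 ± 0.236 and 0.363 ± 0.0666 TPM in NG, HG, HG+OE-FGF9 and si-FGF9. All HG+OE-FGF9 libraries of MARVELD2 lay above all HG libraries, with a log2 fold change of 0.55 (SE 0.153, limma adjusted p = 0.0441). With a pseudocount of 0.1 in place of 1, which weighs low values more, MARVELD2 was called in all 3 comparisons, higher in HG+OE-FGF9 and lower in HG and si-FGF9. MARVELD2 passed the filter through libraries of NG and HG+OE-FGF9, where it was higher, so its differences and calls are given as a description. OCLN has a pseudogene, OCLNP1, and is 1 of 5 listed genes with 1, the others being CTNNA1, CRB3, PKP4 and GJA1. How reads shared with these pseudogenes were counted is not given in the sources used here.

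ZO-1 is the scaffold that ties claudins and occludin to actin. TJP1 stood at 15.5, 17.1 and 16.2 TPM in NG, 4.67, 2.88 and 5.97 in HG, 2.83, 2.12 and 3.96 in HG+OE-FGF9 and 1.88, 2.40 and 2.18 in si-FGF9. The lowest NG library was more than 2 times as high as any other library. TJP1 fell by 1.69 on the log2 scale in HG (SE 0.235, limma adjusted p = 0.000694) and by 2.45 in si-FGF9 (SE 0.235, limma adjusted p = 8.48e-06). In HG+OE-FGF9 versus HG its log2 fold change was -0.46 (SE 0.235, limma adjusted p = 0.221), with overlap. CGN, a scaffold that binds ZO-1, had a highest value of 0.35 TPM.

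Of the polarity genes, PARD6B, an adaptor of the Par complex, stood at 20.2, 15.3 and 14.5 TPM in NG, 3.40, 1.74 and 6.59 in HG, 1.70, 1.72 and 3.92 in HG+OE-FGF9 and 2.14, 1.25 and 1.53 in si-FGF9. NG lay above all 9 other libraries. PARD6B fell by 1.96 on the log2 scale in HG (SE 0.348, limma adjusted p = 0.0015) and by 2.74 in si-FGF9 (SE 0.348, limma adjusted p = 3.23e-05). Its partner PARD3 kept more of its level, with 41.7 ± 2.16 TPM in NG, 24.7 ± 4.67 in HG, 22.6 ± 2.61 in HG+OE-FGF9 and 28.3 ± 1.80 in si-FGF9, and was not called. The 3 genes of the Crumbs complex, CRB3, PALS1 and PATJ, differed from one another. PALS1, the scaffold in the middle, fell from 17.2 ± 2.10 TPM in NG to 5.38 ± 2.22 with HG and 2.09 ± 0.791 with si-FGF9, by 1.57 and 2.58 on the log2 scale (SE 0.300, limma adjusted p = 0.002 and 2e-05). CRB3, the membrane anchor, stood at 7.92 ± 3.76, 8.31 ± 0.591, 10.5 ± 0.704 and 7.31 ± 0.870 TPM in NG, HG, HG+OE-FGF9 and si-FGF9, and was not called. PATJ, which PALS1 binds, had 14.4 to 17.7 TPM in NG, 4.53 to 16.6 in HG, 8.56 to 13.6 in HG+OE-FGF9 and 18.6 to 26.2 in si-FGF9. Its si-FGF9 libraries all lay above NG. The log2 fold change there was 0.49 (SE 0.350, limma adjusted p = 0.23), not called, and it was called higher after scaling by the median of ratios (1.48) or correction for GC content (1.66).

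Among the desmosome genes, desmoglein 2 (DSG2), a desmosomal cadherin, stood at 39.0, 42.0 and 38.6 TPM in NG, 8.5, 4.45 and 19.1 in HG, 5.17, 5.00 and 7.01 in HG+OE-FGF9 and 7.13, 9.30 and 5.31 in si-FGF9. The HG libraries differed by more than 4 times among themselves, and all lay below NG. DSG2 fell by 2.01 on the log2 scale in HG (SE 0.370, limma adjusted p = 0.00172) and by 2.34 in si-FGF9 (SE 0.370, limma adjusted p = 0.000139). Desmocollin 2 (DSC2), its partner, stood at 2.58 ± 0.510 TPM in NG, 0.893 ± 0.199 in HG, 0.327 ± 0.148 in HG+OE-FGF9 and 0.483 ± 0.170 in si-FGF9. DSC2 fell in si-FGF9 by 1.27 (SE 0.174, limma adjusted p = 5.15e-05), and its HG value of -0.92 (limma adjusted p = 0.00194) was under the limit. It passed the filter through the NG libraries it was compared with, so its lower call is given as a description. Desmoplakin (DSP), which binds keratin filaments, fell from 16.9 ± 0.724 TPM in NG to 7.28 ± 1.64 with HG and 2.94 ± 0.355 with si-FGF9, by 1.13 and 2.18 on the log2 scale (SE 0.189, limma adjusted p = 0.00127 and 6.58e-06), and the HG call was lost without HG replicate 2. Of the plakophilins, which bridge cadherins and desmoplakin, PKP4 fell in si-FGF9 from 19.7 ± 3.36 to 8.43 ± 1.48 TPM. PKP2 (1.99 ± 0.165 TPM in NG, 0.743 ± 0.407 with HG and 0.583 ± 0.164 with si-FGF9) and PKP3 (0.44 to 1.55 TPM over the 12 libraries) were low and were not called. PPL was listed at 0.01 TPM at most.

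Connexin 43 forms gap junction channels and is the 1 gap junction gene of the list. GJA1 stood at 44.1, 38.9 and 36.1 TPM in NG, 10.4, 5.09 and 11.2 in HG, 6.44, 6.04 and 9.27 in HG+OE-FGF9 and 8.75, 11.99 and 4.90 in si-FGF9. Each NG library was at 36.1 TPM or more and each other library at 11.99 TPM or less, and the 3 other groups overlapped one another. GJA1 had the largest log2 fold change of the 30 genes in HG versus NG, -2.10 (SE 0.315, limma adjusted p = 0.000851). It fell in si-FGF9 by 2.16 (SE 0.315, limma adjusted p = 7.73e-05), a call lost under GC correction (-0.63), and its value in HG+OE-FGF9 versus HG was -0.21 (SE 0.315, limma adjusted p = 0.675).

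The size of these changes moved with the base composition of the genes. GC content is that of a gene's longest transcript in GENCODE release 29 (GRCh38). Over the 30 junction genes, Spearman's rho of log2 fold change with GC content reached 0.76 for HG against NG, 0.72 for si-FGF9 against NG and 0.27 for HG+OE-FGF9 against HG. Over all 14191 genes tested with a GC value it was 0.64, 0.57 and 0.29. These are correlations across genes of the same libraries and are given as a description. Of the 14 junction genes below 46.6% GC, 10 were called lower with HG and 12 with si-FGF9. Of the 16 at or above it, 3 and 5 were called lower. The share of all genes called lower in each GC class was not counted, so these counts are not read as particular to junction genes. PATJ (43.9%) and MARVELD2 (43.5%), of the lower GC class, were not called lower in either comparison with NG. NECTIN1, NECTIN2, CRB3, JUP and CLDN4, which were not called lower in either comparison with NG, have transcripts of 57.5% to 61.5% GC. The others not called lower were CTNNA1, PARD3, PKP2, CLDN2 and CDH3, at 46.6% to 54.1%, and PKP3, at 66.7%. GJA1, DSG2, PARD6B and CLDN1, among the genes that fell most, have 40.0% to 42.0%. CTNNB1, TJP1, CDH2 and AFDN, called lower in both comparisons, have 43.5% to 46.2%.

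Correcting each library for its GC trend left 4 of the 13 calls in HG versus NG, GJA1 (-1.10), DSG2 (-1.12), AFDN (-1.33) and TJP1 (-1.04), where 3.06% of all genes were called lower. The 9 calls lost were those of CDH2, CTNNB1, CTNND1, F11R, CLDN1, CLDN12, PARD6B, PALS1 and DSP. In si-FGF9 versus NG it left 10 of the 17 lower calls, among them CDH2 (-1.24), CTNNB1 (-1.54), CLDN1 (-1.31) and TJP1 (-1.39), where 12% of all genes were called lower. It left NECTIN1 higher and added PATJ, where 12.3% of all genes were called higher. The 7 calls lost were those of GJA1 (-0.63), DSG2 (-0.95), CLDN12 (-0.83), F11R, DSC2, OCLN and PKP4. DSC2 and OCLN, called lower in si-FGF9, changed sign under this correction, to 0.35 and 0.50. The correction also moves genes at or near 0 TPM. FGF9, at 0 TPM in every library of NG, HG and si-FGF9, took values of 1.09 in HG and 1.63 in si-FGF9 under it. It was called higher in both comparisons with NG. DSC2 and OCLN were low in si-FGF9, so no direction was read from their sign change. With the trend, the correction takes out any shift common to all genes, and the part of base composition in these differences was not tested further. Scaling by the median of ratios gave 9 genes lower and 1 higher in HG, and 12 lower and 4 higher in si-FGF9, the latter NECTIN1, NECTIN2, CLDN4 and PATJ. The lower calls lost were those of CLDN1, CTNND1, DSP and F11R in HG. In si-FGF9 they were those of CLDN11, DSC2, F11R, OCLN and PKP4. The shares over all genes under this scaling were 8.27% lower and 7.43% higher in HG, and 17.5% lower and 19.2% higher in si-FGF9.

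**Figure D5:**
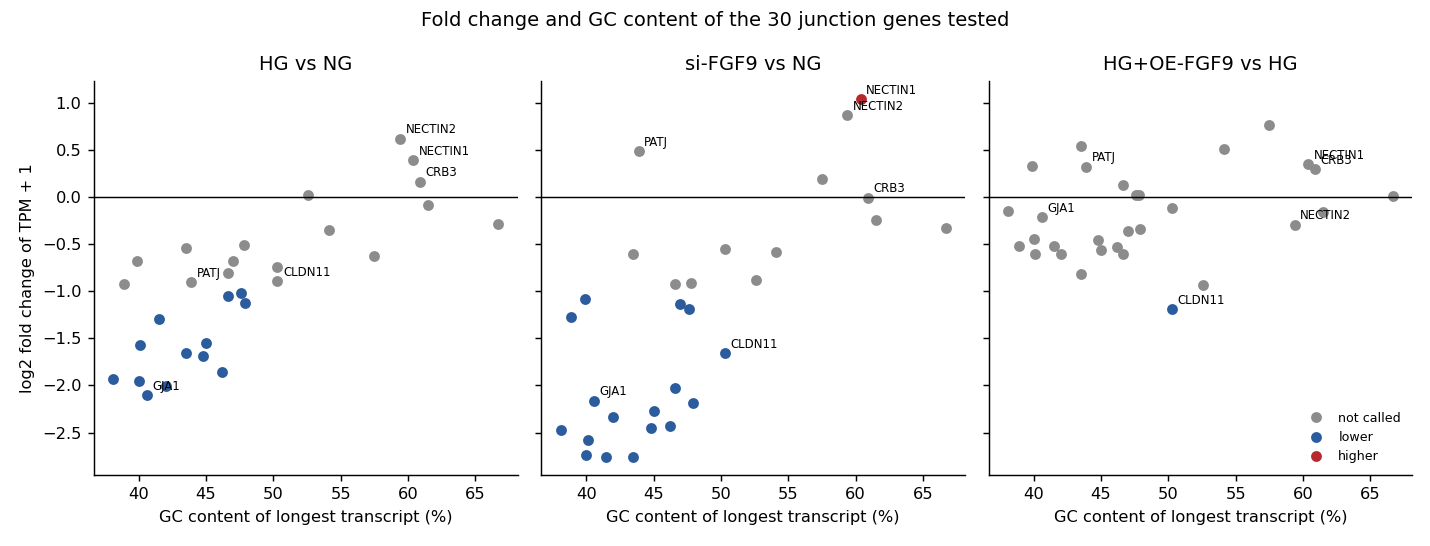
Log2 fold change of TPM + 1 against the GC content of the longest transcript for the 30 junction genes tested, with 1 point per gene and 1 panel per comparison. In the left and middle panels the blue points, called lower, lie at GC contents up to 50.3%, and NECTIN2 and NECTIN1, at 59.4% and 60.4%, lie above 0, while the right panel shows a weaker relation (rho 0.27).

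Promoter windows were read from RefSeq (GRCh38.p14), from 250 bases before to 50 bases after a start site. They were available here for 26 of the 37 genes, in 42 windows. They were searched for the E-box CACCTG, whose other strand reads CAGGTG, the element bound by the SNAIL and ZEB repressors of junction genes, and for the AP-1 element TGACTCA, whose other strand reads TGAGTCA. The E-box letters were found in 12 of the 42 windows, those of 11 genes, and in 20.6% of all 35116 windows of the table. The AP-1 letters were found in 2 of the 42 windows and in 4.9% of all windows. Shown are the windows with the most E-boxes among genes with 1 window, of AFDN, which was called lower in HG and si-FGF9, and of CRB3, which was not, and both windows with an AP-1 element, of GJA1, which was called lower, and of CLDN4, which was not. Capitals mark the motif, and all 4 windows lie on the plus strand.
AFDN, chr6:167827385-167827684: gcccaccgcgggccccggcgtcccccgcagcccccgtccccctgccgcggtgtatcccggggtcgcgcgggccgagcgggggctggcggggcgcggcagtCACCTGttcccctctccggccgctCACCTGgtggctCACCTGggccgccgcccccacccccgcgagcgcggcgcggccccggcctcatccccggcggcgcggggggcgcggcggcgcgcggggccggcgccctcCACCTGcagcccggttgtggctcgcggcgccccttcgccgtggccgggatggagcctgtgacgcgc
CRB3, chr19:6464021-6464320: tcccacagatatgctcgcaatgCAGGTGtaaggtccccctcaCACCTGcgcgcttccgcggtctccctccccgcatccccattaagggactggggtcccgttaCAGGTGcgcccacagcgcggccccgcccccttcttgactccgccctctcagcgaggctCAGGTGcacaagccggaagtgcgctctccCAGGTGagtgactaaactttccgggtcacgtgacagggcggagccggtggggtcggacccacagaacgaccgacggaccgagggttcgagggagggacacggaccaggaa
GJA1, chr6:121435396-121435695: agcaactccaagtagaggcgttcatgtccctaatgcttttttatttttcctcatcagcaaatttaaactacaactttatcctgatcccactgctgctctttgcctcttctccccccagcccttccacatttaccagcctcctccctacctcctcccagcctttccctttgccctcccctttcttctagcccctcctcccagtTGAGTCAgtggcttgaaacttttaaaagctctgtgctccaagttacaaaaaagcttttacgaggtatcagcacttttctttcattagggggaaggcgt
CLDN4, chr7:73830746-73831045: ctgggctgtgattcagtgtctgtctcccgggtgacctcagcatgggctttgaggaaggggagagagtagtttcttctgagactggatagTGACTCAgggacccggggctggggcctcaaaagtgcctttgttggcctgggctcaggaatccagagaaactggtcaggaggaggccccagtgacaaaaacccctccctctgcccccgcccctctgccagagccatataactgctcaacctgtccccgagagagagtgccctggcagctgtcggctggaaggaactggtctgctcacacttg

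The AFDN window holds 4 E-boxes and the CRB3 window 5, and the GJA1 and CLDN4 windows 1 AP-1 element each. In HG versus NG, 4 of the 9 tested genes with an E-box in a window were called lower, as were 6 of the 13 tested genes whose windows held none. In si-FGF9 versus NG the counts were 6 of 9 and 8 of 13. A match says only that these letters are there, not that a factor binds.

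Regulators of junction genes were read as a separate list of 23 genes, of which 13 were tested. The counts at an unadjusted p under 0.05 are given as a description, since the share of all genes at that limit was not counted. In HG, 5 were called lower and 0 higher, where 22.7% of all genes were called lower, and at an unadjusted p under 0.05 in limma 8 lay lower and 0 higher. They were the sheddases ADAM10 and ADAM17, which cleave cadherins and other surface proteins, the repressors ZEB1 and ZEB2 and the epithelial factor KLF4. The largest changes were those of ADAM17, from 11.2 to 1.08 mean TPM (log2 fold change -2.60, SE 0.227, limma adjusted p = 5.88e-05), ADAM10, from 98.3 to 17.9 (-2.48, SE 0.335, limma adjusted p = 0.000639), and ZEB1, from 7.38 to 1.30 (-1.93, SE 0.266, limma adjusted p = 0.000685). In si-FGF9, 7 were called lower and 0 higher (10 and 0 at an unadjusted p under 0.05 in limma), where 42.2% of all genes were called lower, led by ADAM17 (-3.28), ADAM10 (-2.76) and KLF4 (-2.03), with limma adjusted p of at most 4.56e-05. ADAM10, ADAM17 and KLF4 kept their calls under GC correction in both comparisons, and ZEB1 and ZEB2 lost theirs. GC correction left 3 lower in HG, where 3.06% of all genes were called lower. It left 4 lower and 1 higher in si-FGF9, where 12% and 12.3% of all genes were. In HG+OE-FGF9 versus HG, 2 were called lower, the epithelial factor ELF3 (-1.10) and ADAM10 (-1.10), with limma adjusted p of 0.0069 and 0.0608, and 0 were called higher, where 2.67% and 2.94% of all genes were. At an unadjusted p under 0.05 in limma, 3 were lower and 2, KLF4 and SNAI1, higher. The call of ELF3 was lost without HG+OE-FGF9 replicate 1 or 2, and that of ADAM10 without either of these or HG replicate 1 or 3.

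Another 57 junction genes outside the 37 were read in the same way, and 26 were tested. Again the share of all genes at an unadjusted p under 0.05 was not counted. In HG, 7 were called lower and 0 higher (15 and 4 at an unadjusted p under 0.05 in limma), led by the nectin NECTIN3 (log2 fold change -1.63), the actin-binding LIMA1 (-1.55) and vinculin (VCL, -1.46), with limma adjusted p of 0.000982, 0.0185 and 0.00131, where 22.7% of all genes were called lower. The call of LIMA1 held only without HG replicate 3 (-2.24) when 1 library was left out, and was lost without any of the other 5. It was also lost under GC correction (-0.52) and after scaling by the median of ratios (-1.03). In si-FGF9, 14 were called lower and 0 higher (18 and 0 at an unadjusted p under 0.05 in limma), where 42.2% of all genes were called lower, led by LIMA1 (-2.75), the polarity kinase PRKCI (-2.75) and VCL (-2.55), with limma adjusted p of at most 0.000271. GC correction left 0 of the lower calls in HG, where 3.06% of all genes were called lower. It left 5 lower and 1 higher in si-FGF9, where 12% and 12.3% of all genes were. NECTIN3, called lower in both comparisons, lost both calls under it (-0.55 in HG and -0.61 in si-FGF9). In HG+OE-FGF9 versus HG, 3 were called lower and 1 higher, where 2.67% of all genes were called lower and 2.94% higher. The junction genes called were the adhesion molecules JAM2 (-1.36) and ESAM (1.21, higher) and the kidney cadherins CDH6 (-1.34) and CDH16 (-1.07), with limma adjusted p of 0.00404, 0.008, 0.025 and 0.00792. The call of CDH16 was lost without HG+OE-FGF9 replicate 1 (-0.95) or 2 (-0.98) and after scaling by the median of ratios (-0.97). CDH6, a cadherin of the developing proximal tubule, stood above CDH2 in every library, with 161 to 214 TPM in NG, 50.8 to 95.3 in HG, 20.7 to 49.9 in HG+OE-FGF9 and 67.9 to 107 in si-FGF9. In HG+OE-FGF9 it lay below all HG libraries, while CDH2 overlapped.

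Marker lists were summed in each library for comparison with the junction genes. The summed TPM of the 9 mesenchymal markers was 7179 to 9142 in NG, 3333 to 5396 in HG, 1738 to 3502 in HG+OE-FGF9 and 2769 to 3369 in si-FGF9. FN1 and VIM made up 96.2% to 99.6% of that sum in each library. FN1 was called lower for si-FGF9 against NG (-1.80), and COL1A1 for both HG (-1.03) and si-FGF9 (-1.15) against NG. For HG+OE-FGF9 against HG, FN1 was called lower (-1.52), where 2.67% of all genes were. Scaling by the median of ratios kept only the last of these lower calls, which held in 2 of 6 fits with 1 library left out. S100A4 was called higher against NG, by 1.21 with HG and 2.15 with si-FGF9. Its mean TPM was 6.43 in NG, 16.4 in HG and 32.4 in si-FGF9. Over all genes, 22.7% were called lower and 1.65% higher with HG, and 42.2% and 5.36% with si-FGF9. TAGLN had 22.4 to 25.3 TPM in NG and 16.95 to 103 in HG, with overlap. The summed TPM of the 5 epithelial markers was 1201 to 1312 in NG, 945 to 1570.2 in HG, 1146 to 1165 in HG+OE-FGF9 and 1015 to 1423 in si-FGF9. Keratins made up most of that sum, and none of them was called in any comparison. EPCAM, of the same list, had mean TPM of 24.0 in NG, 10.85 in HG and 6.63 in si-FGF9. It was called lower in si-FGF9 (-1.74) and not in HG (-1.20). The si-FGF9 call was lost after scaling by the median of ratios (-0.78) and under GC correction (-0.90). The 14 proximal tubule markers summed to 155 to 168 TPM in NG, 167 to 210.4 in HG, 116.5 to 129 in HG+OE-FGF9 and 227 to 248 in si-FGF9. Most of that sum was GGT1 and PAX8, which moved in opposite directions in si-FGF9. From NG to si-FGF9, mean GGT1 went from 78.7 to 185.8 TPM (1.23, called higher). Mean PAX8 went from 78.5 to 39.55 TPM (-0.97, under the fold change limit). In HG+OE-FGF9 versus HG, mean PAX8 went from 64.1 to 26.35 TPM (-1.31, limma adjusted p = 0.00307). It was called lower there, the 1 call of the proximal tubule list in that comparison. MIOX, at means of 3.36 and 8.22 TPM, was also called higher in si-FGF9 (1.09). The part of these cell types in the junction values was not tested.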

How the data were processed

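RNA of HK2 cells was sequenced by the authors in 12 libraries, 3 per group, grouped by the sample titles. The authors deposited TPM for 62703 Ensembl genes, scaled to the same sum in each library, so that depth and counting error are unknown. The submitters' processing notes name Bowtie 0.12.2 and the mouse build mm8, although the identifiers are human, and the quantification tool is not given in the sources used here. The results section of the study describes the NG medium as one with mannitol and the vector as adenoviral, unlike its methods and the labels, which are followed here.

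The 37 genes and the other gene lists were chosen with earlier results of these data known. All 12 libraries entered one fit with limma 3.58.1 (R 4.3.3, empirical Bayes trend) on log2(TPM + 1), with group as the only term, on the 14639 genes with at least 1 TPM in 3 or more libraries, and the fit was tested on simulated data. Values in each library are given for CDH1, CDH2, CTNNB1, TJP1 and GJA1 and for the called genes with the largest log2 fold change, up to 3 per direction and comparison, and other values by mean ± SD or range. Of the regulators and other junction genes, the called genes with the largest change are named by the same limit, and KLF4 and ZEB2 in HG versus NG and NECTIN3 in si-FGF9 versus NG were named after their values were seen. Of the regulators, 1 is not reported here and is left out of the counts.

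GC content and length came from the longest transcript in GENCODE release 29, with values for 96.9% of the genes tested, and promoters from RefSeq. The GC correction took out, library by library, a natural spline (5 degrees of freedom) of the deviations on GC content. Alternatives were no filter, the 6 libraries of a comparison, a replicate block, an adjusted p under 0.05, a pseudocount of 0.1, median-of-ratios scaling, corrections for GC and for GC with length, and each library left out. Averaging close replicate pairs was chosen after seeing the data.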

Additional observations from a re-analysis of the deposited data

How the results depend on the processing

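Of the 13 junction genes called in HG versus NG, 4 remained called after GC correction, 4 after GC correction with the replicate block and 2 after correction for GC and length. Of the 18 called in si-FGF9 versus NG, 8 remained called after correction for GC and length, which added NECTIN2 and PATJ to give 10 calls. The cause was not tested. The 1 call in HG+OE-FGF9 versus HG became 0 in the fit of 6 libraries and when the close replicate pairs were averaged. The count became 4 with a pseudocount of 0.1, where CLDN2, DSC2 and MARVELD2 were added. Each of these added genes was under 1 TPM in every library of the lower group. Leaving out 1 library gave 9 to 15 calls in HG versus NG, 17 to 19 for si-FGF9 against NG, and 0 to 3 for HG+OE-FGF9 against HG. The lowest HG count came without HG replicate 2. CLDN11 and PATJ were added in HG versus NG without HG replicate 3, and PKP2 in si-FGF9 versus NG without si-FGF9 replicate 3. In HG+OE-FGF9 versus HG, DSG2 was added without HG replicate 2, CLDN2 and CLDN4 without HG replicate 3, and CLDN2 and CTNNB1 without HG+OE-FGF9 replicate 3. The replicate block gave 13, 18 and 1 calls, as the fit without it did, and with GC correction 4, 12 and 1. Deviations of same-numbered libraries correlated at 0.07, 0.09 and -0.16 in HG versus NG, at 0.08, -0.04 and 0.17 in si-FGF9 versus NG and at -0.14, 0.25 and 0.19 for HG+OE-FGF9 against HG, and not every library correlated best with its own number. The deviations were taken from means of 3 libraries, so these values cannot decide whether the numbers pair the samples. Median-of-ratios scaling gave 10, 16 and 1 calls. No called gene given by library took the opposite sign under an alternative, while DSC2, OCLN and PKP4, called lower in si-FGF9, did under the correction for GC and length. Under that correction FGF9, at 0 TPM in every library of NG and si-FGF9, had a value of 1.78 in si-FGF9 versus NG. The unknown depth limits what can be said of genes near 1 TPM, such as OCLN, MARVELD2, CLDN2, CDH3 and PKP3.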
